A study of Mus musculus with 4 samples.

Results

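In mouse adenoma colonoid lines, cultured epithelial structures derived from tumours of the colon, 10 genes of gasdermin pore formation and inflammasome signalling were examined. They were the 4 paralogs Gsdmc, Gsdmc2, Gsdmc3 and Gsdmc4, the gasdermin Gsdmd, the inflammatory caspases Casp1 and Casp4, the adaptor Pycard, the sensor Nlrp6 and the cytokine Il18. They were found by symbol in the authors' table of 16857 genes, where all 10 had a row. They were selected on their normalized values in G2 against G0 in these same libraries, with the results known, so the difference between the groups is given for them as a description and supports nothing further. RNA of 4 lines was sequenced, with 1 library per line. The G2 group holds the lines labelled 157 and 236 with the genotype Apcnull/LSL-mTERT-homo, and the G0 group holds the lines 75 and 179 with the genotype Apcnull/LSL-mTERT-het. All 4 lines are labelled Apcnull and carry Apcmin in their names. The series sets lines of low against high chromosomal instability, and the labels do not say which generation is which, name no Cre, promoter, age or sex, and do not say whether the lines came from separate mice. The p-values below therefore measure only the spread between these lines.

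A gasdermin is kept inactive by its own C-terminal part until a protease cuts it, and the freed N-terminal parts then assemble into a pore in the plasma membrane. In the canonical inflammasome a sensor such as NLRP6 or NLRP3 recruits the adaptor ASC, the product of Pycard, which activates caspase-1. Caspase-1 cuts GSDMD and converts the precursors of IL-1 beta and IL-18 into active cytokines. The product of mouse Casp4, also known as caspase-11, binds bacterial lipopolysaccharide in the cytosol and cuts GSDMD directly. Gut epithelium is a known source of IL-18. The Gsdmc paralogs of the mouse intestine are known to be induced by the type 2 cytokines IL-4 and IL-13 through STAT6.

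The Gsdmc paralogs lie next to each other on the minus strand of chromosome 15, between 63775971 and 63912319 in GRCm38.p6, a span of 136 kb. Their sequences are shown because their likeness decides how far the 4 genes can be told apart. The lines below give the first 90 coding bases from GENCODE M21 (GRCm38, minus strand, each within 1 exon), with capitals at the positions that are not the same in all 4 genes. They lie at chr15:63804503-63804592, chr15:63835854-63835943, chr15:63869208-63869297 and chr15:63902841-63902930.
Gsdmc: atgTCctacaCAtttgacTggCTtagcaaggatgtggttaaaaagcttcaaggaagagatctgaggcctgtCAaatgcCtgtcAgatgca
Gsdmc2: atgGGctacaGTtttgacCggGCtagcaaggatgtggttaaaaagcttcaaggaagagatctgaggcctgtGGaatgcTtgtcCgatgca
Gsdmc3: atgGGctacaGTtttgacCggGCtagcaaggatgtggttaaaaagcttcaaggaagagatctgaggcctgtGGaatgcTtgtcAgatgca
Gsdmc4: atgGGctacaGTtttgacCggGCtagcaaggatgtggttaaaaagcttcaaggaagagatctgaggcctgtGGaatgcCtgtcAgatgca
The 4 genes differed at 11 of these 90 positions, and at most of them Gsdmc alone had another base. Over the coding sequence Gsdmc2 and Gsdmc3 were 97.1% identical, and Gsdmc4 was 93.5% identical to each. Gsdmc was 86.1% to 86.4% identical to the other 3 genes. Of all 100-base stretches of the transcripts, 28.6% in Gsdmc2, 30.5% in Gsdmc3, 20.2% in Gsdmc4 and 7.3% in Gsdmc occurred letter for letter in another paralog. How reads in such stretches were assigned is not given in the sources used here, so the level of each single paralog is uncertain, and the sum of the 4 is given as well.

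Values are normalized counts: counts recovered from the authors' log2 values and scaled by 1 size factor per library. Library totals ran from 16545429 to 17901744 counts. Tert, the telomerase subunit named in the genotype, had 0 and 0.977 normalized counts in G2 replicates 1 and 2, against 93.3 and 97.5 in G0 replicates 1 and 2 (limma adjusted p = 0.00128). The Y-linked genes Kdm5d, Uty, Eif2s3y and Ddx3y had 296 to 526 normalized counts in the G2 libraries and 0 in both G0 libraries. The group label, the LSL-mTERT genotype, the Tert level and the presence of Y-linked transcripts thus split the lines alike. They cannot be told apart in any result below. Over all 13981 genes tested, 10.5% passed at an adjusted p under 0.05. In bulk RNA, fewer cells of a type and less RNA per cell cannot be told apart.

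All 4 Gsdmc paralogs were higher in both G2 libraries than in either G0 library. Gsdmc2 had 545 and 1094 normalized counts in G2 replicates 1 and 2, against 1.96 and 3.05 in G0 replicates 1 and 2. Gsdmc4 had 112 and 248 in G2, against 0.982 and 0 in G0. Gsdmc3 had 87.7 and 123 in G2, against 0 and 1.02 in G0. These 3 genes were thus readily counted in both G2 lines and rested on 0 to 3 counts per library in the G0 lines. Gsdmc had 4.03 and 5.86 normalized counts in G2, against 0 and 0 in G0, and was the least abundant of the family in both G2 lines.

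**Figure D1:**
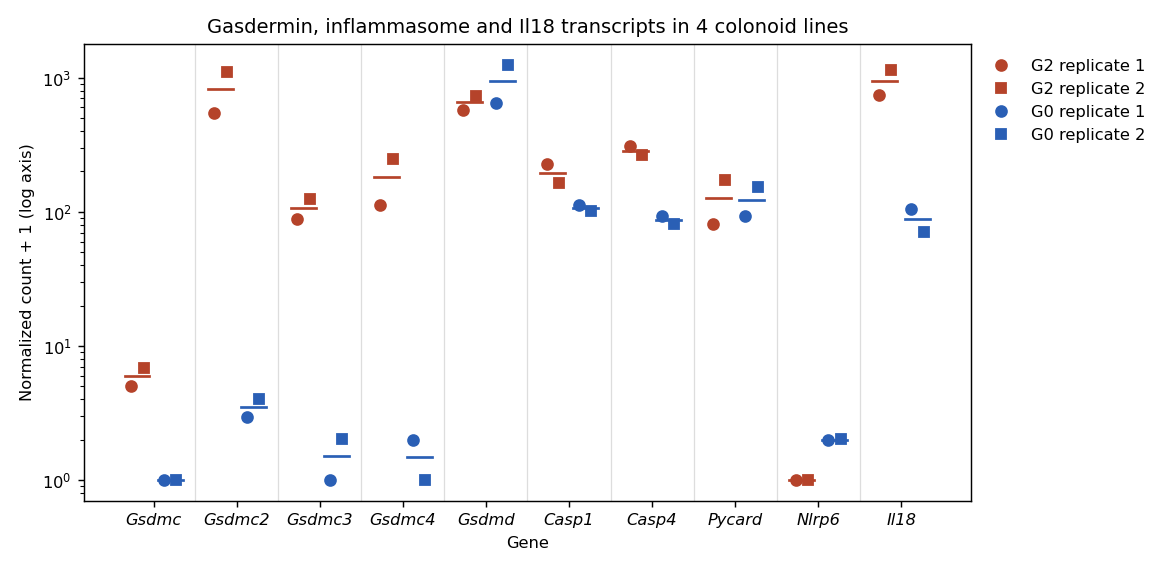
Normalized counts plus 1 (log axis) of the 10 genes; circles and squares are replicates 1 and 2, G2 in red and G0 in blue, and lines mark group means (n = 2 each). The Gsdmc paralogs, Casp1, Casp4 and Il18 lie higher in both G2 libraries, while the groups overlap for Gsdmd and Pycard.

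The mean of Gsdmc2 was 819 ± 388 normalized counts in G2 and 2.51 ± 0.77 in G0 (SD, n = 2 each), a ratio of 327. Because the G0 mean rests on so few counts, the exact 95% interval of this ratio, which covers counting error only, ran from 141 to 1017. For Gsdmc4 the means were 180.1 ± 96.4 in G2 and 0.491 ± 0.694 in G0, with an interval of the ratio from 64.7 to 14371. For Gsdmc3 they were 105 ± 25.0 in G2 and 0.508 ± 0.718 in G0, with an interval from 37.6 to 8403. The ratio of Gsdmc2 also varied with the lines, and was 217 without G2 replicate 2 and 437 without G2 replicate 1. That of Gsdmc3 was 104 without G0 replicate 1, and that of Gsdmc4 was 183 without G0 replicate 2. Gsdmc was at least 1.65-fold higher in G2, set against a floor of 3 counts per library in G0.

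Summed over the 4 paralogs, the level was 748 and 1471 normalized counts in G2 replicates 1 and 2, against 2.95 and 4.06 in G0 replicates 1 and 2. The G2 to G0 ratio of the summed level was 317, with an exact interval from 155 to 795. The second G2 line held 1.97 times the summed level of the first, so the family varied between lines of the same group. Its make-up varied less. Gsdmc2 made up 72.8% of the summed counts in G2 replicate 1 (exact Clopper-Pearson 95% interval 69.4% to 76.0%) and 74.4% in replicate 2 (72.1% to 76.5%). Gsdmc4 made up 14.96% (12.5% to 17.7%) in replicate 1 and 16.9% (15.02% to 18.9%) in replicate 2. Gsdmc3 made up 11.7% (9.50% to 14.3%) in replicate 1 and 8.37% (7.02% to 9.89%), and Gsdmc 0.539% in replicate 1 and 0.399% in replicate 2. The intervals of the 2 lines overlapped for every paralog, for Gsdmc3 only between 9.50% and 9.89%. Such overlap does not show equal shares, and the difference between the lines was not tested. All of these intervals cover counting error only.

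**Figure D2:**
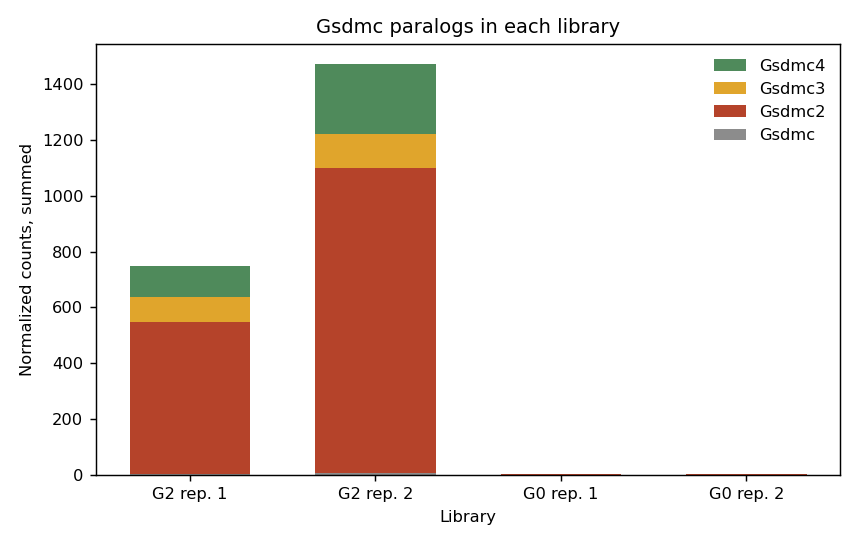
Normalized counts of the Gsdmc paralogs stacked by library (1 bar per library). Gsdmc2 fills most of both G2 bars, which reach 748 and 1471, while the G0 bars of 2.95 and 4.06 barely leave the axis.

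The nearest genes with a row on either side of the cluster differed far less between the groups. On the lower-coordinate side these were Myc, the transcription factor, and beyond it Fam84b. Myc ends at 61990361 and Fam84b at 60826105, whereas the cluster starts at 63775971. On the higher-coordinate side the cluster ends at 63912319, Fam49b starts at 63929094 and Asap1 at 64086840. Myc and Fam84b thus lie much farther from the cluster than Fam49b and Asap1. Myc had 8458 and 7919 normalized counts in G2, against 9509 and 10734 in G0 (limma adjusted p = 0.229). Fam84b had 1757 and 1439.8 in G2, against 1489 and 1086 in G0 (limma adjusted p = 0.322). On the other side Fam49b had 1006 and 1080.1 in G2, against 1109 and 856 in G0 (limma adjusted p = 0.745). Of these neighbours only Asap1 passed. It lies beyond Fam49b and encodes an Arf GTPase-activating protein. Asap1 rose 1.65-fold to 877 and 897 in G2, against 517 and 558 in G0 (limma adjusted p = 0.0249). The median log2 fold change of the 547 tested genes of chromosome 15 was -0.01, against 0.01 for all genes tested. The pseudogenes Gsdmcl1, Gsdmcl2 and 1700065I16Rik inside the cluster had no row.

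**Figure D3:**
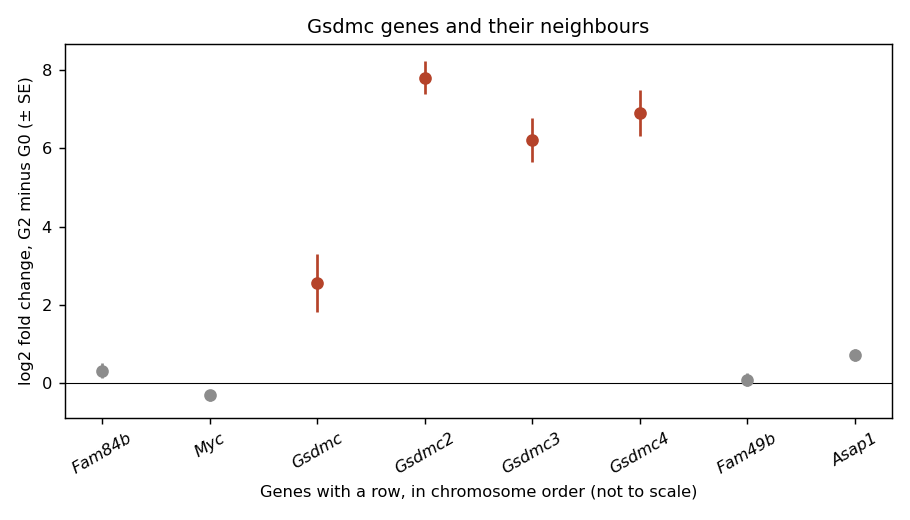
Fitted log2 fold change, G2 minus G0, with its standard error (bars) for the Gsdmc genes (red) and the nearest genes with a row on either side (grey), in chromosome order. The Gsdmc genes lie between 2.56 and 7.80, and the 4 neighbours between -0.30 and 0.72.

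The receptors and the factor through which type 2 cytokines are known to reach Gsdmc genes did not pass. Il4ra had 2106 and 3264 normalized counts in G2, against 2700.2 and 2904 in G0 (limma adjusted p = 0.805). Stat6 had 2440 and 2456 in G2, against 2326 and 3295 in G0 (limma adjusted p = 0.571). Il13ra1 had 548 and 847 in G2, against 833 and 699 in G0 (limma adjusted p = 0.688). The groups overlapped for all 3. The protein of human GSDMC is known to be cut by caspase-8. Casp8 had 1671 and 2111 in G2, against 2616 and 2675 in G0 (limma adjusted p = 0.0910).

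Gsdmd (chromosome 15, 75862144 to 75867408, GRCm38.p6), which encodes the gasdermin cut by the inflammatory caspases, did not share the pattern of the Gsdmc family. It had 574 and 731 normalized counts in G2, against 642 and 1246 in G0, so the groups overlapped and the highest value belonged to G0 replicate 2. The means were 652 ± 111 in G2 and 944 ± 427 in G0, and without G0 replicate 2 the ratio of G2 to G0 was 1.02. Per kilobase of transcript, Gsdmd averaged 364 normalized counts in G2 and 527 in G0, and Gsdmc2 averaged 379 in G2 and 1.16 in G0. By level per length, the mean of Gsdmc2 thus came close to that of Gsdmd in the G2 group. Gsdmc2 lay below Gsdmd in G2 replicate 1 (252 against 320) and above it in G2 replicate 2 (506 against 408). In the G0 lines Gsdmc2 was far below Gsdmd. Stretches shared with other paralogs leave the level of Gsdmc2 uncertain here too.

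The other gasdermins were scarce. Gsdma, a gasdermin best known from skin and the upper gut, rose 11.9-fold (limma adjusted p = 0.00644). It had 77.7 and 78.2 normalized counts in G2, against 3.93 and 9.14 in G0. The rise was 8.52-fold without G0 replicate 1 and 19.8-fold without G0 replicate 2. Gsdme, a gasdermin first known from inherited hearing loss in humans, had 1.01 and 4.89 in G2, against 4.91 and 11.2 in G0 (limma adjusted p = 0.319). Gsdma2 was at 0 in all 4 libraries, Pjvk had 1 count in all, and Gsdma3 had no row. Ninj1, whose product breaks up the membrane after pore formation, had 559 and 627 in G2, against 770 and 914 in G0 (limma adjusted p = 0.0994). Beside Gsdma, 2 of 7 keratinocyte markers rose, as did 5.93% of all genes tested. The list summed to 2068 and 2291 in G2, against 842 and 718 in G0. Nearly all of that sum was Krt14 and Krt6a, and the median log2 fold change of the list was -0.01. Krt14 had 917 and 1107 in G2, against 329 and 332 in G0 (limma adjusted p = 0.00227), and Krt6a 1045 and 1136 in G2, against 435 and 299.7 in G0 (limma adjusted p = 0.00547). Their part in the result was not tested.

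Casp4 and Casp1 lie in tandem on the plus strand of chromosome 9, with 1567 bases between them, followed after 8650 bases by Casp12. Casp4 (5308849 to 5336791, GRCm38.p6) had 306 and 262 normalized counts in G2, against 91.3 and 80.2 in G0. Its means were 284 ± 30.8 in G2 and 85.8 ± 7.8 in G0 (SD, n = 2 each), a ratio of 3.31, and replicates differed little within either group. Casp1 (5298517 to 5307281) had 228 and 162 in G2, against 112 and 101 in G0. Its means were 195 ± 46.4 in G2 and 106 ± 8.0 in G0, a ratio of 1.84, and the groups did not overlap. The third gene of the locus, Casp12, whose product has been linked to damping of inflammasome signalling in mice, had 170.4 and 225 in G2, against 98.2 and 42.7 in G0 (limma adjusted p = 0.0559). All 3 genes of the locus therefore had higher values in both G2 libraries than in both G0 libraries, as did 29.2% of all genes tested.

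Pycard (chromosome 7, 127991373 to 127993867), whose product ASC joins sensors to caspase-1, was present in all lines without a common direction. It had 79.7 and 171 normalized counts in G2, against 92.3 and 151 in G0, and its means were 125 ± 64.6 in G2 and 122 ± 41.8 in G0. The sign of its difference turned with the library left out, with ratios between 0.65 and 1.40. The GENCODE M21 model of Pycard is longer than the span given here, which is from RefSeq. Of its 3800 exon bases in GENCODE M21, 485 overlap the antisense gene Gm45205. Whether reads were counted by strand is not given in the sources used here. Nlrp6 (chromosome 7, 140920902 to 140929192), a sensor known from gut epithelium, was near absent. It had 0 and 0 counts in G2, against 1 and 1 count in G0, which is under the floor of 3 counts per library, and it was not tested because its mean was under 1 normalized count.

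Promoter windows of Casp4, Il18 and Gsdmc3 are shown as examples of a caspase, a cytokine and a gasdermin gene, each higher in both G2 lines; 6 of the 10 genes matched the RefSeq promoter table. The windows run from 250 bases before to 50 bases after the RefSeq start (GRCm38.p6), and positions count from that start. Capitals mark matches, on either strand, to any of the short motifs searched.
Casp4, chr9:5308599-5308898, plus strand: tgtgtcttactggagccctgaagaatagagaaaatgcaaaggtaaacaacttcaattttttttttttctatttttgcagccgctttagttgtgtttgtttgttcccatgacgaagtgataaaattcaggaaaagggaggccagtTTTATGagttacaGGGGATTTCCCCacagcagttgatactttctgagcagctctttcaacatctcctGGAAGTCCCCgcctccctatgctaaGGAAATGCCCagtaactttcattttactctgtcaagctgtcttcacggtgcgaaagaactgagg
Il18, chr9:50554450-50554749, plus strand: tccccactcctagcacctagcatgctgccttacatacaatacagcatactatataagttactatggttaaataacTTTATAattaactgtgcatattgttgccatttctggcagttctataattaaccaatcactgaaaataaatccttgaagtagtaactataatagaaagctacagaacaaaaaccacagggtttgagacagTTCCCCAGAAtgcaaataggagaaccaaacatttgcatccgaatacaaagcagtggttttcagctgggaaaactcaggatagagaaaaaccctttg
Gsdmc3, chr15:63878509-63878808, minus strand: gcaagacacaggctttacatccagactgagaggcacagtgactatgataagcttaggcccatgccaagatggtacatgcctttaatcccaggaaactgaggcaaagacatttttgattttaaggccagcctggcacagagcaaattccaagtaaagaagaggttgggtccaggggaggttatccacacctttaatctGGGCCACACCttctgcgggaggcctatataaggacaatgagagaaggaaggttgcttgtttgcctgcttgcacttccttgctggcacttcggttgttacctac
The capitals of Casp4 hold matches to the letters of an NF-kappaB site, GGG and CC parted by 5 bases. Those beginning at -93 and -92 read so as printed, and those at -91, -39 and -14 match on the reverse strand. The matches at -93, -92 and -91 overlap. TTTATG, a CDX-type motif, begins at -106. The capitals of Il18 hold TTC and GAA parted by 4 bases, the spacing known for STAT6, at -46. They also hold the TATA box letters TATAAA on the reverse strand at -175. Those of Gsdmc3 hold the NF-kappaB letters at -53. Among 27025 RefSeq promoter windows of the same length, 50.4% held the NF-kappaB letters, 12.1% the CDX-type motif, 7.0% the STAT6 letters and 14.2% the TATA letters, so the NF-kappaB letters are common. Of the other windows, Casp1 held the NF-kappaB letters on the reverse strand at -158, Nlrp6 held the AP-1 letters TGANTCA at -140 and Pycard held no match. The letters for the interferon response (GAAA repeated after 2 bases) were found in none of the 6 windows and in 3.5% of all windows, and those for an HNF4-type site (CAAAGTNCA) in none of the 6 and in 1.4% of all. A match is a description of the letters, not of binding.

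Il18 (chromosome 9, 50554700 to 50581841, GRCm38.p6) had 743 and 1136 normalized counts in G2, against 104 and 70.1 in G0. Its means were 939.5 ± 278 in G2 and 87.1 ± 24.0 in G0 (SD, n = 2 each), a ratio of 10.8, which stayed between 8.53 and 13.4 when any 1 library was left out. Per kilobase of transcript it was the most abundant of the 10 genes in the G2 lines, at 1092 normalized counts, against 101 in the G0 lines, where Gsdmd stood above it. In RefSeq the spans of Il18 and Bco2, a carotenoid-cleaving oxygenase gene next to it on chromosome 9, share 515 bases. Bco2, named after its values were seen, had 236 and 446 in G2, against 57.0 and 32.5 in G0, and rose 7.62-fold (limma adjusted p = 0.00685). GENCODE M21 gives the 2 genes no shared exon base, and the part of shared reads was not tested.

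Of the 9 genes tested, 5 passed at an adjusted p under 0.05, all higher in G2, namely Gsdmc2, Gsdmc3, Gsdmc4, Casp4 and Il18. Of all genes tested 10.5% passed, 5.93% as higher and 4.56% as lower in G2. Nothing is read from this count, since the same contrast chose the genes. All 5 were lost with no filter on low values, and with any 1 library left out. With the replicate block, Casp1 (higher) and Gsdmd (lower) passed as well. For 7 of the 10 genes both G2 libraries lay above both G0 libraries, for Nlrp6 both lay below, and for Gsdmd and Pycard the groups overlapped. The groups did not overlap, in either direction, for 57.8% of all genes tested.

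Around Il18, genes of the IL-1 family differed in both directions. Of the 3 other ligands tested under their listed symbols, only Il1a passed. Il1a, which encodes the alarmin IL-1 alpha, rose to 97.8 and 86.0 normalized counts in G2, against 0.982 and 3.05 in G0 (limma adjusted p = 0.00224). Its ratio was 45.6, with a counting interval from 17.7 to 171, and it was 93.6 without G0 replicate 2 and 30.2 without G0 replicate 1. Il33, another alarmin, was abundant in all lines, with 5429 and 4471 in G2, against 4533 and 4721 in G0 (limma adjusted p = 0.729). Il1b had no row, and Il1f5, an older symbol of the receptor antagonist gene Il36rn, had 2.02 and 1.95 in G2, against 0 and 1.02 in G0, under the floor. Il36g had a row as Il1f9, with 8.07 and 9.77 in G2, against 3.93 and 2.03 in G0 (limma adjusted p = 0.201). The receptor antagonist gene Il1rn rose 1.97-fold, with 1059 and 927 in G2, against 488 and 521 in G0 (limma adjusted p = 0.0103). Il1rap, the accessory chain shared by receptors of IL-1, IL-33 and IL-36, fell and was 2.95-fold lower, with 143 and 115 in G2, against 447 and 316 in G0 (limma adjusted p = 0.0117).

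The receptor genes for IL-18 itself did not pass. Il18r1 had 42.4 and 49.9 normalized counts in G2, against 121 and 89.4 in G0, a log2 difference of -1.16 (limma adjusted p = 0.0583). Il18rap had 47.4 and 97.7 in G2, against 144 and 106 in G0 (limma adjusted p = 0.222). Both chains had lower values in both G2 libraries, as did 28.6% of all genes tested. Il18bp, the secreted inhibitor, had 16.1 and 22.5 in G2, against 18.7 and 11.2 in G0 (limma adjusted p = 0.650). Among the signal carriers below these receptors, Irak3, an inhibitor of the pathway, fell and was 3.004-fold lower, with 47.4 and 62.6 in G2, against 199 and 131 in G0 (limma adjusted p = 0.0269). Myd88, Irak1, Irak4 and Traf6 did not pass, and neither did Irak2 (limma adjusted p = 0.153).

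**Figure D4:**
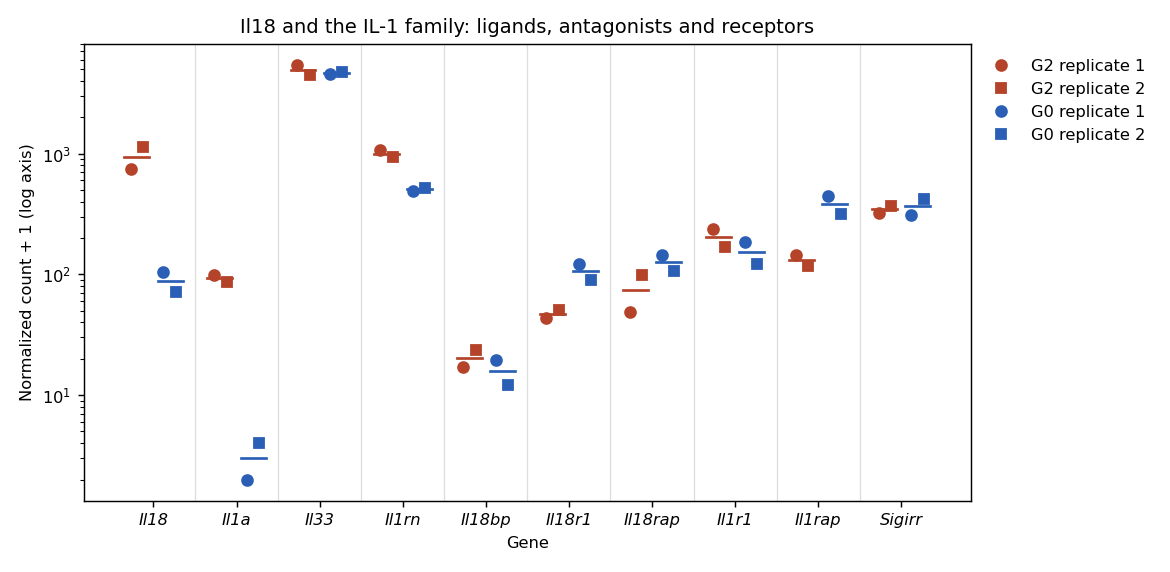
Normalized counts plus 1 (log axis) of Il18 and genes of IL-1 family ligands, antagonists and receptors; symbols, colours and lines as for the 10 genes. Il18, Il1a and Il1rn lie higher in both G2 libraries, Il1rap, Il18r1 and Il18rap lie lower, and Il33 is level near 4471 to 5429.

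Of 92 other gene symbols of the pathway, 81 had a row and 75 were tested. These counts go by the listed symbols and so leave out Il1f9 and Gm12250 (an alias of Irgb10), which did not pass (limma adjusted p = 0.201 and 0.856). Of the 75 tested, 9 rose and 3 fell, which is 16.0% against 10.5% of all genes tested. Their median log2 fold change was -0.04 against 0.01. The list was chosen with earlier results of these data known, so nothing is read from its shares. Among the sensors 2 of 12 rose. Nlrp10, an NLR protein without leucine-rich repeats, had 106 and 90.9 normalized counts in G2, against 7.86 and 11.2 in G0, and rose 10.3-fold (limma adjusted p = 0.00370). Nod2, which senses bacterial muramyl dipeptide, had 160.4 and 129 in G2, against 51.1 and 39.6 in G0, and rose 3.19-fold (limma adjusted p = 0.0165). Nlrc4, Aim2 and Nlrp3, sensors known to recruit caspase-1, did not pass. Nlrc4 had 86.7 and 85.0 in G2, against 79.5 and 92.4 in G0, Aim2 had 1114 and 1066 in G2, against 922 and 685 in G0 (limma adjusted p = 0.157), and Nlrp3 was at or under the floor everywhere. Naip1, which detects a bacterial secretion needle, had 131 and 4.89 in G2, against 209 and 274 in G0, so the 2 G2 lines differed widely (limma adjusted p = 0.166). Naip2 had 405 and 386 in G2, against 488 and 557 in G0 (limma adjusted p = 0.181). Naip5 had 114 and 67.4 in G2, against 104 and 141 in G0 (limma adjusted p = 0.419). Naip6 had 712 and 381 in G2, against 383 and 415 in G0 (limma adjusted p = 0.431). For Naip5 and Naip6 the groups overlapped. Reads of the Naip paralogs may be shared between them.

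Txnip, which has been linked to NLRP3, was the only sensor regulator of 7 that passed, with 5057 and 6380 normalized counts in G2, against 2493 and 2984 in G0, a rise of 2.09-fold (limma adjusted p = 0.0110). Nek7, needed for NLRP3 assembly, had 1391 and 1089 in G2, against 941 and 704 in G0 (limma adjusted p = 0.107). The guanylate-binding and immunity-related GTPases, known to open bacteria and vacuoles to caspase-11, had 3 of 11 members rise and 0 fall. Thus 27.3% of them passed, all as higher. Of all genes tested 10.5% passed, and 5.93% passed as higher. Nothing is read from this share, since these GTPases were listed with earlier results of these data known. Gbp9 rose 3.95-fold, with 95.8 and 121 in G2, against 28.5 and 26.4 in G0 (limma adjusted p = 0.0116). Irgm2 rose 2.22-fold, with 160.4 and 179 in G2, against 82.5 and 70.1 in G0 (limma adjusted p = 0.0331). Gbp6 rose on few counts, with 15.1 and 16.6 in G2, against 2.95 and 1.02 in G0 (limma adjusted p = 0.0411). Its ratio of 8.01 had a counting interval from 2.82 to 31.0 and was 15.6 without G0 replicate 1 and 5.39 without G0 replicate 2. Its call was lost with a pseudocount of 0.5 (limma adjusted p = 0.0501). Gbp4 had 12.1 and 14.7 in G2, against 2.95 and 1.02 in G0 (limma adjusted p = 0.0578). The Gbp genes of chromosome 5 are close paralogs, so reads may be shared.

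Of the 7 other caspases 0 passed with limma, and 2, Casp8 and Casp12, had an unadjusted p under 0.05. Of the 4 necroptosis genes 0 passed, and both Ripk3 and Mlkl had an unadjusted p under 0.05. Ripk3, a kinase of that route, had 1345 and 1269.7 in G2, against 1537 and 1888 in G0 (limma adjusted p = 0.162). Mlkl, the pore-forming effector, had 241 and 269 in G2, against 349.6 and 528 in G0 (limma adjusted p = 0.0945). Among regulators of Gsdmd and Casp4, Irf8, known to drive Naip genes in mice, fell and was 4.30-fold lower, with 11.1 and 17.6 in G2, against 47.1 and 76.2 in G0 (limma adjusted p = 0.0316). Irf2, known to drive Gsdmd, had 1203 and 903 in G2, against 717 and 658 in G0 (limma adjusted p = 0.0804). Irf1 and Cyld did not pass (limma adjusted p = 0.155 and 0.182). Of the 6 membrane repair genes 0 passed, with Chmp4c nearest to the threshold at 357 and 326 in G2, against 197 and 219 in G0 (limma adjusted p = 0.0595). Each of the 12 calls was lost when any 1 library was left out, with adjusted p between 0.0846 and 0.276, and none turned direction. All 12 were also lost with no filter on low values, and 7 without an intensity trend. An unadjusted p under 0.05 was reached by 29 of the 75 genes, against 26.8% of all genes tested.

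**Figure D5:**
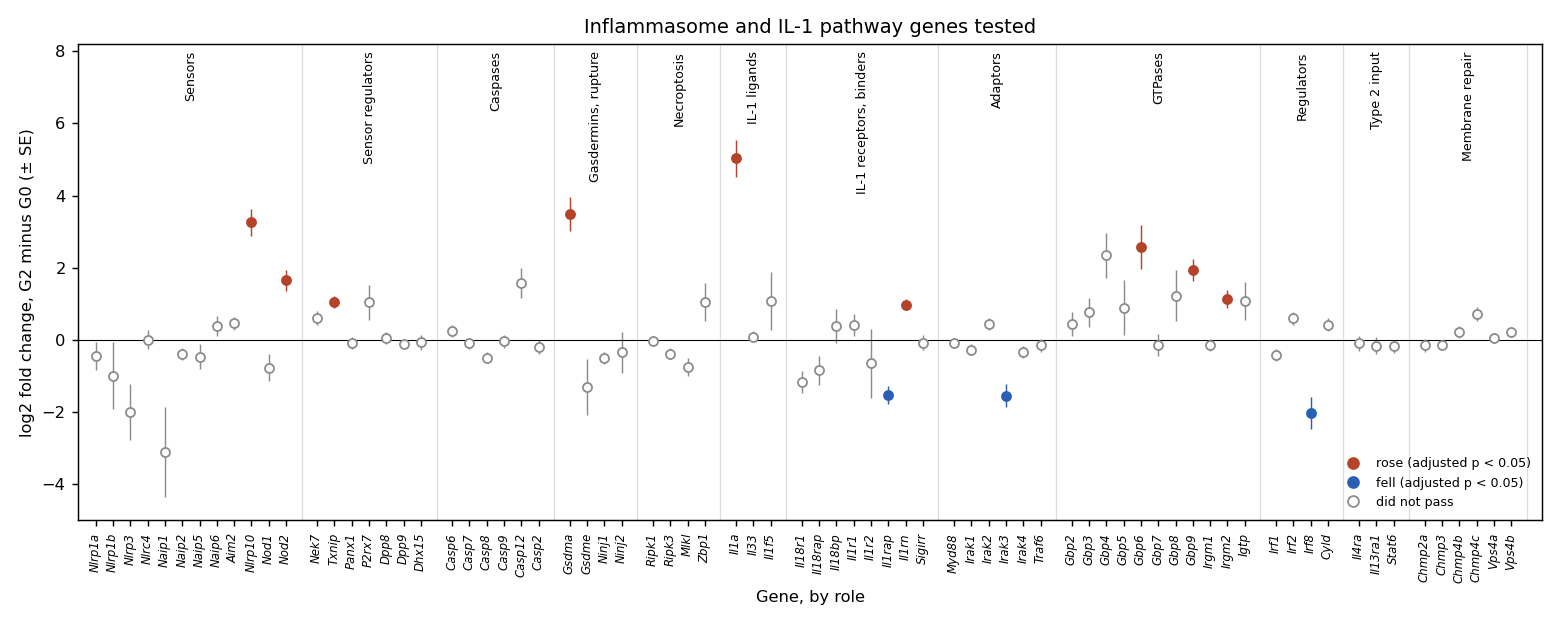
Fitted log2 fold change, G2 minus G0, with its standard error (bars) for 74 of the 75 pathway genes tested, by role. The 9 genes that rose are red, the 3 that fell are blue and the others are open; the highest is Il1a at 5.03.

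Markers of other cells were set beside these results. Over all marker lists, the epithelial ones included, 39 genes were tested, of which 10 rose and 4 fell. This is 35.9%, against 10.5% of all genes tested. Nothing is read from this share, because the marker lists too were chosen with earlier results of these data known. Of the macrophage markers 8 of 11 had a row and 2 of 6 tested rose. Cd14 had 2106 and 2197 normalized counts in G2, against 991 and 1230.1 in G0 (limma adjusted p = 0.0107), and Csf1r had 16.1 and 4.89 in G2, against 0 and 0 in G0 (limma adjusted p = 0.0431). The defining markers Ptprc and Itgam were at 0 in all 4 libraries. Laptm5, another leukocyte gene, had 7.06 and 23.5 in G2, against 0.982 and 1.02 in G0 (limma adjusted p = 0.0550). The summed list was 3286 and 4126 in G2, against 2125 and 3345 in G0, made up almost wholly of Cd68 and Cd14. The 2 lymphocyte markers with a row of 8 summed to 3.03 and 1.95 in G2, against 0.982 and 1.02 in G0, and Cd4 was at 0 throughout. Fibroblast markers, 5 of 6 with a row, summed to 8.07 and 10.8 in G2, against 4.91 and 4.06 in G0. Col3a1 rose among them to 7.06 and 6.84 in G2, against 0 and 0 in G0 (limma adjusted p = 0.0404), and Dcn and Pdgfra were at 0. Endothelial markers, 3 of 4 with a row, summed to 48.4 and 46.9 in G2, against 3.93 and 4.06 in G0, nearly all of it Tek, which rose 13.2-fold (limma adjusted p = 0.00587).

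Epithelial markers were abundant in all lines, with summed levels of 153823 and 160147 normalized counts in G2, against 116346 and 157800 in G0. Within them Cdh1 rose 1.80-fold (limma adjusted p = 0.0171), whereas the gut genes Cdx2 and Vil1 fell. Cdx2, a transcription factor of intestinal identity, had 270.3 and 187 in G2, against 2395 and 3199 in G0 (limma adjusted p = 0.00043). Vil1 was 4.42-fold lower in G2 (limma adjusted p = 0.0103). It was 7.06-fold lower without G2 replicate 1 and 3.21-fold lower without G2 replicate 2. Of 8 colonocyte markers tested, Car1 rose, with 4019 and 508 in G2, against 38.3 and 107 in G0 (limma adjusted p = 0.0264), which was 31.2-fold and without G2 replicate 1 was 7.01-fold, and Ceacam1 fell and was 2.05-fold lower (limma adjusted p = 0.0137). Of 4 goblet markers tested, Clca1 rose 31.5-fold, or 17.7-fold without G2 replicate 1 (limma adjusted p = 0.00911), and Fcgbp fell and was 2.79-fold lower (limma adjusted p = 0.0338). The mucin gene Muc2 had 3.03 and 1.95 in G2, against 9.82 and 18.3 in G0 (limma adjusted p = 0.0748). Zg16 had 110 and 0 in G2, against 0.982 and 0 in G0 (limma adjusted p = 0.381). The tuft cell marker Avil rose 2.66-fold (limma adjusted p = 0.0359), while Pou2f3, which defines tuft cells, was at 0. The part of these cell states in the levels of the 10 genes was not tested. The marker calls, too, were lost with any 1 library left out, with adjusted p between 0.0909 and 0.323.

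The genes whose profile over the 4 libraries was nearest to that of the summed Gsdmc paralogs, by Euclidean distance between centred log2 profiles, were Smoc1 (0.473), Sox17 (0.586) and Ddx3y (0.950). Smoc1, which encodes a secreted matrix protein, had 199.7 and 266 normalized counts in G2, against 0 and 0 in G0. Sox17, a transcription factor of endoderm, had 967 and 1150.5 in G2, against 2.95 and 3.05 in G0. Ddx3y, one of the Y-linked genes whose presence cannot be told apart from the G2 group, had 334 and 296 in G2, against 0 and 0 in G0. Like the Gsdmc family, these genes were near absent from the G0 lines, which follows from picking them by profile. Nearest to Il18 were Podxl (0.219), Sbspon (0.277) and Pxdn (0.318). Podxl, which encodes a sialomucin of the apical membrane, had 1900 and 2376 in G2, against 229 and 154 in G0. Sbspon had 304 and 517 in G2, against 55.0 and 30.5 in G0, and Pxdn, a peroxidase of the matrix, had 1014 and 1591 in G2, against 179 and 89.4 in G0. Their higher G0 value fell in replicate 1, as for Il18, to whose profile they were matched.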

How the data were processed

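RNA of 4 colonoid lines was sequenced by the study's authors. Tools named in the submitters' processing notes were HISAT2 2.1.0, DESeq2 1.32.0, StringTie 2.1.1, bcl2fastq 2.20.0 and R 3.5.2, on the mm10 build; the annotation, strand setting and filters were not given in the sources used here. As deposited by the authors, the data were 1 table of log2 values on a variance-stabilized scale, with a floor of 6.508 in every library. Inverting that scale gave normalized counts that, with 1 size factor per library, were whole numbers within 0.001 for 100% of values. These may be rounded estimates, since StringTie is among the tools. Another unit had been foreseen in the plan. A pathway gene and a motif are not reported here.

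Genes averaging 1 or more normalized counts were tested on log2(normalized count + 1) with limma 3.58.1 (R 4.3.3, intensity trend, group as the only term), adjusted by Benjamini-Hochberg over 13981 genes with a threshold of 0.05; the fitted fold understates the change of low genes. The procedure was tested on simulated data, where all genes had the same dispersion (spread beyond counting error) and only abundant genes were changed. That test does not cover genes with few counts, such as the Gsdmc paralogs in G0. Ratios were taken between group means. Intervals are exact 95% intervals of counts. The members and lists were chosen with earlier results of these data known. Named were all members, Tert, pathway and marker genes past the threshold, pathway genes with an unadjusted p under 0.05 or a role close to a member, the 3 genes nearest in profile and the 2 neighbours on each side of the Gsdmc genes. Alternatives covered pseudocounts, filters, scaling, the trend, a replicate block, summed paralogs and each library left out.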

Additional observations from a re-analysis of the deposited data

How the results depend on the processing

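With 2 lines a group the counts of calls depended on the spread borrowed across genes. Of all genes 1467 passed; with no filter on low values 225 passed, without an intensity trend 623, and with any 1 library left out 0 to 2, where limma gave 2431 to 3234 genes an unadjusted p under 0.05. Of the pathway list 9 genes rose and 3 fell; with no filter 0 rose and 1 fell, without a trend 5 rose and 1 fell, and with any 1 library left out 0 to 0 rose and 0 to 0 fell. Of the immune, stromal and endothelial markers 4 passed; 1 passed with no filter, 2 with a mean of at least 5 normalized counts, 2 without a trend and 0 to 0 with any 1 library left out. The cause was not tested; a library left out leaves 1 group with 1 sample, which is assumed to vary like the others. The replicate numbers share no stated source, and with 2 pairs the correlation of same-numbered deviations was 0.109. With the replicate block 3503 genes passed, and 18 pathway genes rose and 10 fell. The ratio of the summed Gsdmc paralogs stayed between 214 and 420. Scaling to the same total or upper quartile moved none of the 9 members tested beyond the replicate spread. A pseudocount of 5 moved 4 of them and one of 0.5 moved 1: the log2 difference of Gsdmc was 2.56, with 0.99 at a pseudocount of 5 and 3.43 at 0.5, and that of Gsdmc3 was 6.21, with 4.31 at 5. On the deposited values the log2 difference was smaller in size for all 9 and moved beyond that spread for 7. The 5 member calls were lost with no filter (adjusted p 0.0605 to 0.0941) and with any 1 library left out (0.0729 to 0.167); with the replicate block Casp1 (0.0119) and Gsdmd (0.0411) passed too. The near-zero difference of Pycard changed sign with scaling to the same total, on the deposited values and with a library left out, and that of Gsdmd without G0 replicate 2. Counts of 0 to 3 in the G0 lines limit the ratios of the Gsdmc paralogs.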
